A study of Mus musculus with 6 samples.

Results

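The ligands, latent-ligand carrier, receptors, Smads and target gene examined here are Tgfb1, Tgfb2, Tgfb3, Ltbp1, Tgfbr1, Tgfbr2, Tgfbr3, Smad3, Smad7 and Tgfbi, 10 of the 54446 genes listed in each count matrix. They were found by symbol. They had been chosen by their summed UMIs and shares of cells with a UMI in the 2 cultures, so their differences between cultures are a description and carry no test. Of the 10, 9 had UMIs in every library (a UMI, or unique molecular identifier, marks 1 captured transcript) and also passed the low-count filter. Tgfbr3 had 0 UMIs over all barcodes of every library, called cells and free RNA alike. Whether the counting could assign reads to it was not tested, so its 0 is not read as absence.

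The 6 libraries came from droplet 5' single-cell RNA-seq. GL261, a long-established glioma line of mouse origin, was grown with fetal calf serum in a differentiation medium (2 libraries). GL261-GSCs is the label of its stem cell cultures, grown in a defined medium for glioblastoma stem cells (4 libraries). The culture label therefore goes with the medium, and the effects of serum and of cell state cannot be told apart. Nothing in the labels says whether replicates came from separate cultures, so p-values measure the spread between these libraries, which may be technical.

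TGF-beta ligands are secreted in a latent complex, in which latent TGF-beta binding proteins such as Ltbp1 tether the ligand to the matrix. Released ligand binds the type II receptor Tgfbr2, which recruits and phosphorylates the type I receptor Tgfbr1, and Tgfbr1 in turn phosphorylates Smad2 and Smad3. These join Smad4 and enter the nucleus, where they induce genes that include Smad7, which feeds back to block the type I receptor. In glioma the pathway is known for its links to invasion, to immune suppression and to the upkeep of stem-like cells, and serum is a source of latent TGF-beta.

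Called cells numbered 4264 to 7275 per library, with 33320530 to 79472306 UMIs in all and medians of 6670 to 15477.5 UMIs per cell. The libraries did not stand at equal distances. The chi-square per degree of freedom over genes was 21.5 between the GL261 libraries, 70.1 between GL261-GSCs replicates 1 and 2, and 44.8 between replicates 3 and 4. It was 147 to 216 between those pairs of stem cell libraries, which thus form separate pairs, and 460 to 620 between cultures. Any pair of libraries shared 32 to 59 called barcodes, where independent draws give 26.1 to 57.9. Of the 6 glioma stem and oligodendrocyte precursor markers, 4 (Sox2, Olig1, Olig2 and Pdgfra) were at higher levels in every GL261-GSCs library than in either GL261 library, Nes was at lower levels and Cspg4 overlapped. Sox2 was at 66.8 to 67.5 CPM (UMIs scaled to a common library total) in GL261 and 81.7 to 140.6 in GL261-GSCs. Olig2 was at 0.0166 to 0.918 CPM in GL261 and 401 to 787 in GL261-GSCs. Nes, the most abundant of the 6 in GL261, was at 1183 and 1265 CPM there and 312 to 563 in GL261-GSCs, and Cspg4 was at 164 and 200.2 CPM and 67.2 to 209. Of the 6 macrophage and microglia markers, 4 were under 1 CPM in every library, and their sum was 19.9 to 20.9 in GL261 and 9.21 to 23.2 in GL261-GSCs. Within it Csf1r went from 12.9 and 12.6 CPM to 0.192 to 0.243, and Cd68 was at 7.04 to 7.87 in GL261 and 8.92 to 23.0 in GL261-GSCs. The neuronal gene Syt1 was at 0.0148 to 0.0331 CPM in GL261 and 1.15 to 78.2 in GL261-GSCs, and the astrocyte gene Aldh1l1 at 6.49 to 7.11 and at most 0.0152. The 4 endothelial markers summed to at most 1.63 CPM and Cldn5 was at 0. The fibroblast and pericyte markers summed to 5.05 to 5.07 CPM in GL261 and 0.317 to 0.687 in GL261-GSCs, a sum led by Pdgfrb with 3 of the 4 markers under 1 CPM everywhere. The part of these markers in the results below was not tested.

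Promoter sequences are shown for a pair of genes that were lower in GL261-GSCs, Tgfb1 and Tgfb2, and for Ltbp1, which was higher, so that their base composition and motifs can be set side by side. They are RefSeq promoters on GRCm38.p6, from 250 bases before to 50 after the start, read 5′ to 3′ on the gene's strand. RefSeq promoters were matched for 7 of the 10 genes, 9 promoters in all. Tgfb3, Tgfbr3 and Smad7 are named only. Capitals mark the CAGA box (CAGACA, or TGTCTG on the other strand, the element that Smad3 and Smad4 bind), the E-box CACGTG and the cyclic AMP response element TGACGTCA.
Tgfb1 promoter, chr7:25686752-25687051, plus strand: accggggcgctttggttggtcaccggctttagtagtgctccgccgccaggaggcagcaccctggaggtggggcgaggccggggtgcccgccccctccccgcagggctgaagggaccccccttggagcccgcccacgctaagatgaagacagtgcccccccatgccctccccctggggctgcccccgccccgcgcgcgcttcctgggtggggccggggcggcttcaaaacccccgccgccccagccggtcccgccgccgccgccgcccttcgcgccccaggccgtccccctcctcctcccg
Tgfb2 promoter, chr1:186705940-186706239, minus strand: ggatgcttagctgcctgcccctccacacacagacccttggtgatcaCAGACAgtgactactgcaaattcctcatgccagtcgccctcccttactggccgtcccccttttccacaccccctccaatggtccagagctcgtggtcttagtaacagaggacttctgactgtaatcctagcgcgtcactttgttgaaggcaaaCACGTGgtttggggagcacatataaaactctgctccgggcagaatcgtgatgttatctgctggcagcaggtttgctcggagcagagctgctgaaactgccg
Ltbp1 promoter, chr17:75005279-75005578, plus strand: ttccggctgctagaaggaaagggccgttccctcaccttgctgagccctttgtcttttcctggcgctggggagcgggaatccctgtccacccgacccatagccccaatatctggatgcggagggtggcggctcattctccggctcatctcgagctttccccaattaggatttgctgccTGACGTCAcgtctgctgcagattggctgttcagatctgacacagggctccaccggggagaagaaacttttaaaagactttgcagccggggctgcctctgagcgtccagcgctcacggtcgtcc
The Tgfb1 promoter was 77% G and C, against 54.33% for Tgfb2, 58.67% for this first Ltbp1 promoter and a median of 52.67% over all promoters. The matched promoters not printed were at 74.67% and 52% (Tgfbr1, first and second), 67.67% (Smad3), 63.33% (Tgfbi), 59% (Tgfbr2) and 50% (Ltbp1, second). The Tgfb1 promoter held 6 GC boxes (GGGCGG or CCGCCC, left in lower case), a motif in 35.7% of the 32851 promoters searched on both strands. GC boxes were also in the first Tgfbr1, the Smad3 and the Tgfbi promoter. The Tgfb2 promoter had CAGACA beginning 204 bases before the start and CACGTG beginning 51 bases before it. Those motifs are in 21.04% and 7.15% of promoters. The first Ltbp1 promoter had TGACGTCA 73 bases before the start, as 1.79% of promoters do anywhere in this window. A second Ltbp1 promoter, not printed, held CAGA boxes 149 and 98 bases before its start, and a second Tgfbr1 promoter held one 203 bases before. These matches are letters in a window and show no binding.

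The ligands differed between the cultures in opposite directions. Tgfb1, a secreted ligand, was at 27.8 and 30.5 CPM in the GL261 libraries and at 4.08, 3.16, 1.81 and 2.06 in GL261-GSCs replicates 1 to 4. The means were 29.2 ± 1.95 (SD, n = 2) and 2.78 ± 1.05 (SD, n = 4), a 10.5-fold difference, and every GL261 library lay above every GL261-GSCs library. Tgfb2, another of the ligands, was at 33.6 and 48.0 CPM in GL261. It was at 0.425, 1.05, 0.200 and 0.192 CPM in GL261-GSCs, 87.5-fold lower by the means and 149.8-fold lower without replicate 2. The 28, 76, 16 and 7 UMIs behind those stem cell values make them the least precise of the ligands.

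Tgfb3 ran the other way. It was at 4.24 and 4.62 CPM in GL261 and at 16.4, 21.3, 16.3 and 16.5 in GL261-GSCs, 3.97-fold higher by the means, again with no overlap. Summed over the ligands, the level was 65.6 and 83.1 CPM in GL261 and 18.3 to 25.5 in GL261-GSCs. The higher Tgfb3 level in GL261-GSCs thus did not make up the lower levels of the other ligands.

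The makeup of the ligand UMIs differed accordingly. UMIs of 5' ends are counted per transcript, so no length scaling was applied. In GL261 replicate 1, Tgfb2 made up 51.2% of 4430 ligand UMIs (95% exact binomial interval 49.7 to 52.7), Tgfb1 42.3% and Tgfb3 6.46%. In GL261 replicate 2 the shares were 57.7%, 36.7% and 5.56% of 5018 UMIs. Tgfb3 held most of the ligand UMIs in every GL261-GSCs library. Its share there was 78.4% (76.1 to 80.6), 83.5% (81.7 to 85.2), 89.0% (87.3 to 90.5) and 88.0% (85.3 to 90.3) in replicates 1 to 4. These intervals cover counting error only.

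**Figure D1:**
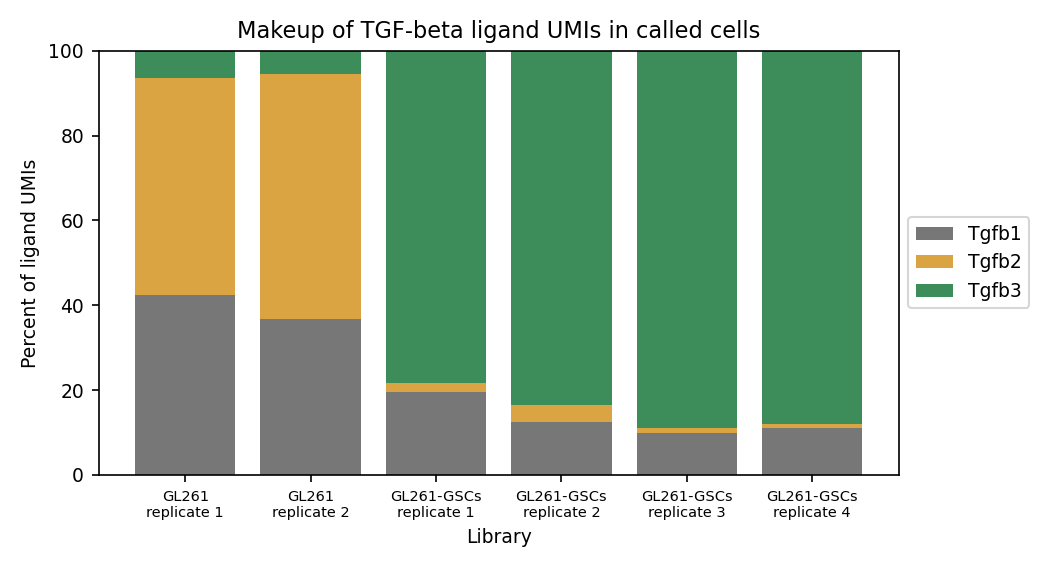
Bars give the percent of the UMIs of Tgfb1, Tgfb2 and Tgfb3 that belonged to each ligand, per library, in called cells. Tgfb3 makes up 5.56% to 6.46% of the ligand UMIs in GL261 and 78.4% to 89.0% in GL261-GSCs.

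Ltbp1, the carrier that holds latent ligand in the matrix, was barely detected in GL261, at 0.474 and 0.315 CPM from 32 and 19 UMIs. In GL261-GSCs it was at 11.5, 9.21, 5.48 and 5.52 CPM, a 20.1-fold higher mean. Within GL261-GSCs, replicates 1 and 2 lay above replicates 3 and 4.

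Both signalling receptors were higher in GL261-GSCs. Tgfbr1, the type I receptor kinase, was at 12.9 and 13.1 CPM in GL261 and 19.5, 21.7, 22.4 and 24.3 in GL261-GSCs, 1.69-fold higher by the means. Tgfbr2, the ligand-binding type II receptor kinase, was at 19.1 and 18.5 CPM in GL261 and 68.5, 75.9, 51.7 and 61.6 in GL261-GSCs, 3.43-fold higher. Neither receptor overlapped between the cultures. The ratio of Tgfbr2 to Tgfbr1 in CPM was 1.48 and 1.42 in GL261, 3.50 and 3.49 in GL261-GSCs replicates 1 and 2, and 2.31 and 2.54 in replicates 3 and 4.

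Smad3, a signal-carrying Smad, overlapped between the cultures. It was at 7.17 and 6.18 CPM in GL261 and at 8.36, 7.49, 5.85 and 6.02 in GL261-GSCs, a ratio of means of 1.04. Smad7, the inhibitory Smad, was far lower in GL261-GSCs. It was at 131 and 116 CPM in GL261 and at 2.14, 1.70, 2.58 and 2.36 in GL261-GSCs, 56.4-fold lower by the means, with 15884 UMIs in GL261 and 556 in GL261-GSCs. In CPM, Smad7 exceeded Smad3 by 18.3 and 18.8 times in GL261 and was 0.227 to 0.440 of it in GL261-GSCs.

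Tgfbi, a secreted matrix protein named for its induction by TGF-beta, did not separate the cultures. It was at 3.75 and 2.83 CPM in GL261. In GL261-GSCs it was at 15.1 and 10.3 CPM in replicates 1 and 2 and at 0.700 and 0.440 in replicates 3 and 4, so that the pairs of stem cell libraries lay on opposite sides of GL261. With CPM rescaled over the libraries used, the difference of mean log2(CPM + 1) from GL261 was 1.66 for replicates 1 and 2 and -1.43 for replicates 3 and 4. Over all libraries, 7 of the 9 detected genes had no overlap between the cultures, where 56.7% of the 18439 genes tested had none, 28.7% higher and 28% lower.

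**Figure D2:**
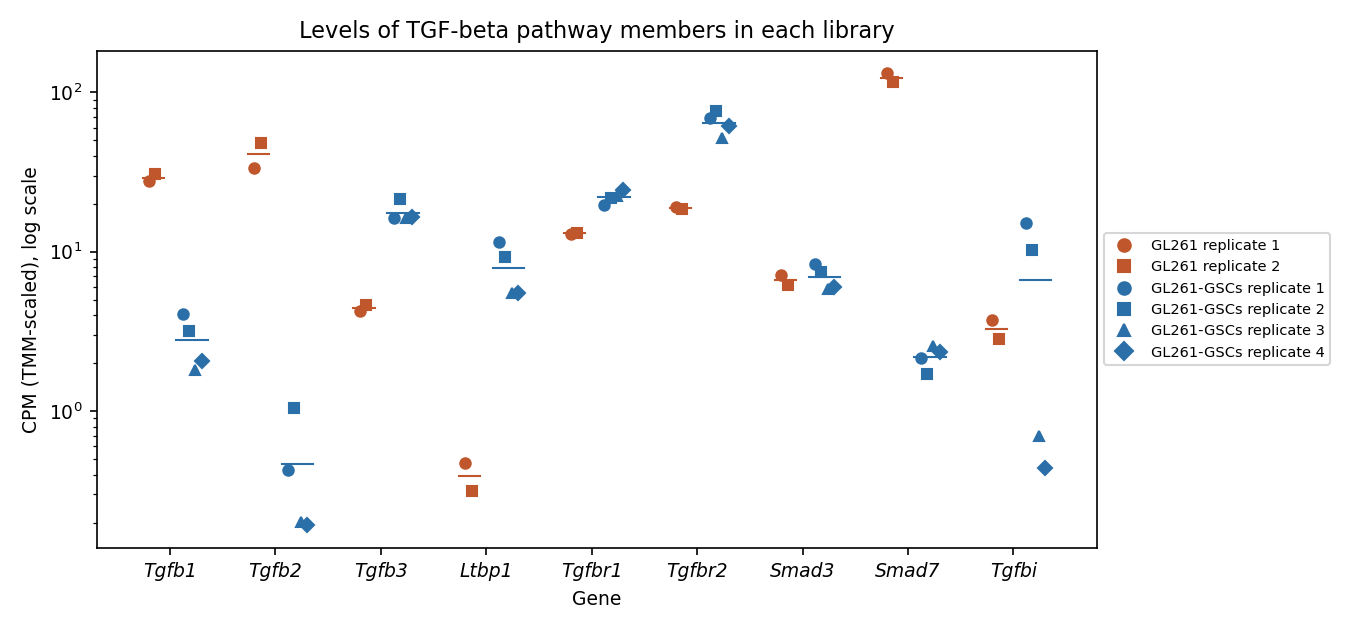
Points give CPM per library on a log axis for the 9 detected genes, with GL261 at the left and GL261-GSCs at the right of each gene and horizontal lines at the group means. Tgfb1, Tgfb2 and Smad7 are lower and Tgfb3, Ltbp1, Tgfbr1 and Tgfbr2 higher in all GL261-GSCs libraries, while Smad3 overlaps and Tgfbi splits the GL261-GSCs libraries into pairs.

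Shares of cells with a UMI were compared after each cell was thinned to 2000 UMIs, which left out 0 cells. Barcodes with at least 100 and under 1000 UMIs gave the share that free RNA alone would produce at that depth. That value takes all UMIs of a cell to be free RNA. It is a yardstick and not an estimate of contamination, and the part of free RNA in the cells was not estimated. Smad7 was found in 21.5% (20.4 to 22.7) and 19.0% (18.0 to 20.1) of GL261 cells, where free RNA would give 10.7% and 7.64%. In GL261-GSCs the shares were 0.539%, 0.375%, 0.660% and 0.532%, against 0.242%, 0.148%, 0.269% and 0.282% from free RNA. Without thinning, Smad7 was found in 67.1% and 62.2% of GL261 cells, with 2.75 and 2.25 UMIs per positive cell. Droplets of free RNA alone would give 53.7% and 39.4% at that depth. The unthinned shares are therefore not read as shares of expressing cells. The 10 cells with the most Smad7 held 1.76% and 1.84% of its UMIs in GL261, so the level did not rest on a few cells.

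Tgfbr2 was found in 3.33% and 3.24% of GL261 cells at 2000 UMIs and in 12.9%, 15.0%, 10.6% and 14.2% of GL261-GSCs cells. Droplets of free RNA alone would give 3.15% and 2.22% in GL261 and 9.41% to 12.0% in GL261-GSCs. How much of the Tgfbr2 share came from free RNA cannot be told from these values. Tgfb2 was found in 5.68% and 8.42% of GL261 cells, above the 4.18% and 4.15% from free RNA, and Tgfb1 in 4.97% and 5.92%, above 3.98% and 3.35%. Ltbp1 was found in 2.44%, 1.87%, 1.25% and 1.33% of GL261-GSCs cells, above 0.798%, 0.785%, 0.613% and 0.659%. For Tgfbr1, and for Tgfb3 in GL261, the share was at or below that of free RNA in several libraries, and no statement per cell is made. Tgfb3 was found in 3.85%, 4.70%, 3.71% and 4.59% of GL261-GSCs cells, against 3.42%, 3.95%, 3.59% and 3.79% from free RNA. The intervals of replicates 1 (3.29 to 4.47) and 3 (3.29 to 4.17) include the free RNA value. How much of the Tgfb3 share came from free RNA cannot be told either. For Tgfbr3, if it could be counted, 0 UMIs would allow a share of cells with a UMI of up to 0.0412% to 0.0704% per library (3 cells of the total).

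Genes whose pattern over the 6 libraries was most like that of a member were ranked by the root mean square difference of log2(CPM + 1), each centred on its own mean. For Smad7 they were Wfdc1 (0.12), S100a11 (0.16) and Prkg2 (0.20). For Tgfb2 they were Sdc4 (0.19), Lmna (0.23) and 2310002F09Rik (0.30). For Tgfbi, which split the stem cell libraries, they were Mgst1 (0.14), Arhgap24 (0.28) and Ccdc8 (0.32). Mgst1 was at 28.0 and 19.8 CPM in GL261 and at 114, 64.5, 8.15 and 7.22 in GL261-GSCs. Because 1 CPM was added before the log, low levels weigh little and a like pattern is not a like fold. Wfdc1 was at 42.9 and 40.1 CPM in GL261 and 0.0966 to 0.165 in GL261-GSCs. Lmna was at 834 and 902 CPM in GL261 and 24.7 to 42.8 in GL261-GSCs.

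The other genes of the pathway were taken as 6 lists of 98 genes, 85 of which passed the low-count filter, and were tested in the edgeR quasi-likelihood fit across all genes (Benjamini-Hochberg adjusted p under 0.05). Of the 85, 52 passed, and in GL261-GSCs 9 of these were higher and 43 lower. Over all 18439 genes, 29.9% were called, 15.8% higher and 14.1% lower. The median log2 fold change of the 85 was -0.82, against 0.04 over all genes. It was the same with the 5 genes of 0 to 3 UMIs in a culture set at their bound or counted ratio. The lists too were chosen with results of this comparison known.

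Among latency and activation genes, 2 of 16 rose and 6 fell. Thbs1, a matrix protein that can activate latent ligand, fell from 1106 and 1533 CPM to 0.864, 2.19, 3.69 and 5.49 (log2 fold change -8.77, SE 0.69, edgeR adjusted p = 0.00033). Itgb8, an integrin subunit that releases latent ligand, was at 11.7 and 12.2 CPM in GL261 and 19.3 to 46.3 in GL261-GSCs (1.46, SE 0.35, edgeR adjusted p = 0.021). Emilin1, a matrix protein that limits processing of the ligand precursor, rose (1.57, edgeR adjusted p = 0.0024). Furin, which cleaves the precursor, fell by 0.64 on the log2 scale, and Mmp14, a membrane protease, fell by 1.95. Ltbp3, another carrier, overlapped between the cultures (-0.15, edgeR adjusted p = 0.61).

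Of the 6 activin, nodal and GDF ligands tested, 1 rose and 2 fell. Inhba, the activin A subunit, fell from 11.5 and 7.65 CPM to at most 0.907 (-4.34, SE 0.81, edgeR adjusted p = 0.0085), and Gdf15, a stress-induced ligand, fell too (log2 fold change -1.998). Among related receptors and coreceptors, 2 of 8 rose and 4 fell. The activin type II receptors Acvr2a (0.83) and Acvr2b (1.78) rose. Nrp1, a coreceptor that can bind TGF-beta, fell from 113 and 113 CPM to 0.0824 to 0.227 (-9.21, SE 0.26, edgeR adjusted p = 1.8e-05). Nrp2 fell by 2.51 and Eng, the coreceptor endoglin, by 2.01. Acvr1b, the activin type I receptor, was not called (0.30, edgeR adjusted p = 0.33).

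Among Smads and their partners, 3 of 13 rose and 5 fell. Smad2, the partner of Smad3 in receiving the signal, was at 68.3 and 69.2 CPM in GL261 and 28.2 to 39.6 in GL261-GSCs (-0.95, SE 0.16, edgeR adjusted p = 0.0062). Smad4, the common partner, was at 105 and 105 CPM and at 61.1 to 71.8 (-0.62, SE 0.12, edgeR adjusted p = 0.0091). Smad1, which carries BMP signals, was at 32.6 and 31.3 CPM in GL261 and 72.8 to 131 in GL261-GSCs (1.60, SE 0.27, edgeR adjusted p = 0.0060). Smad6, the other inhibitory Smad, had 0 UMIs in GL261-GSCs and was at least 52.5-fold lower there, set against 3 UMIs over the group. It was at only 0.578 and 0.663 CPM in GL261. Zfyve16, an endosomal protein that binds Smads, rose (0.77). Of the partners of the kinase Map3k7, Tab1 rose (1.16) and Tab2 fell by 0.73 on the log2 scale.

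Of the 16 inhibitors and negative regulators, 8 fell and 0 passed the test as higher. Fst, an activin antagonist named here after its values were seen, was not called and was at 0.148 and 0.166 CPM in GL261 and 0.227 to 3.56 in GL261-GSCs (edgeR adjusted p = 0.15). Skil and Ski, corepressors of Smads, fell by 1.68 and 1.46 on the log2 scale (edgeR adjusted p = 0.00030 and 0.0020). Nedd4l, a ubiquitin ligase acting on Smads, fell by 1.88 and Fstl3, another activin antagonist, fell by 3.24. Tgif1, a corepressor, was also lower (log2 fold change -1.80). Pmepa1, a TGF-beta induced inhibitor, was at 91.0 and 115 CPM in GL261 and 40.4, 15.9, 3.34 and 8.24 in GL261-GSCs, and missed the threshold (-2.60, SE 0.81, edgeR adjusted p = 0.051). It passed without GL261-GSCs replicate 1 (log2 fold change -3.48). Smurf2, a ubiquitin ligase that Smad7 brings to the receptor, overlapped (-0.09, edgeR adjusted p = 0.69).

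Of the 26 TGF-beta induced genes tested, 18 fell and 1 rose, with a median log2 fold change of -2.19. The other 7 were not called (edgeR adjusted p = 0.16 to 0.96) and are named here after their values were seen. Their log2 fold changes were 1.74 (Vegfa), 0.84 (Bhlhe40), 0.40 (Cdkn1a), -0.02 (Cdkn2b), -0.11 (Klf10), -0.19 (Itga5) and -0.60 (Postn). Acta2 and Tagln, actin cytoskeleton genes of contractile cells, fell by 9.24 and 9.38 on the log2 scale (edgeR adjusted p = 0.00025 and 0.00018). Fn1, the matrix protein fibronectin, and Ctgf, a secreted matricellular protein, had log2 fold changes of -8.52 and -7.93. Col3a1, a fibrillar collagen, was the gene that rose, from 6.01 and 5.003 CPM to 22.3, 180, 201 and 174 (4.71, SE 0.95, edgeR adjusted p = 0.011). Many genes of this list also respond to serum, which the GL261 medium held. That part was not tested.

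**Figure D3:**
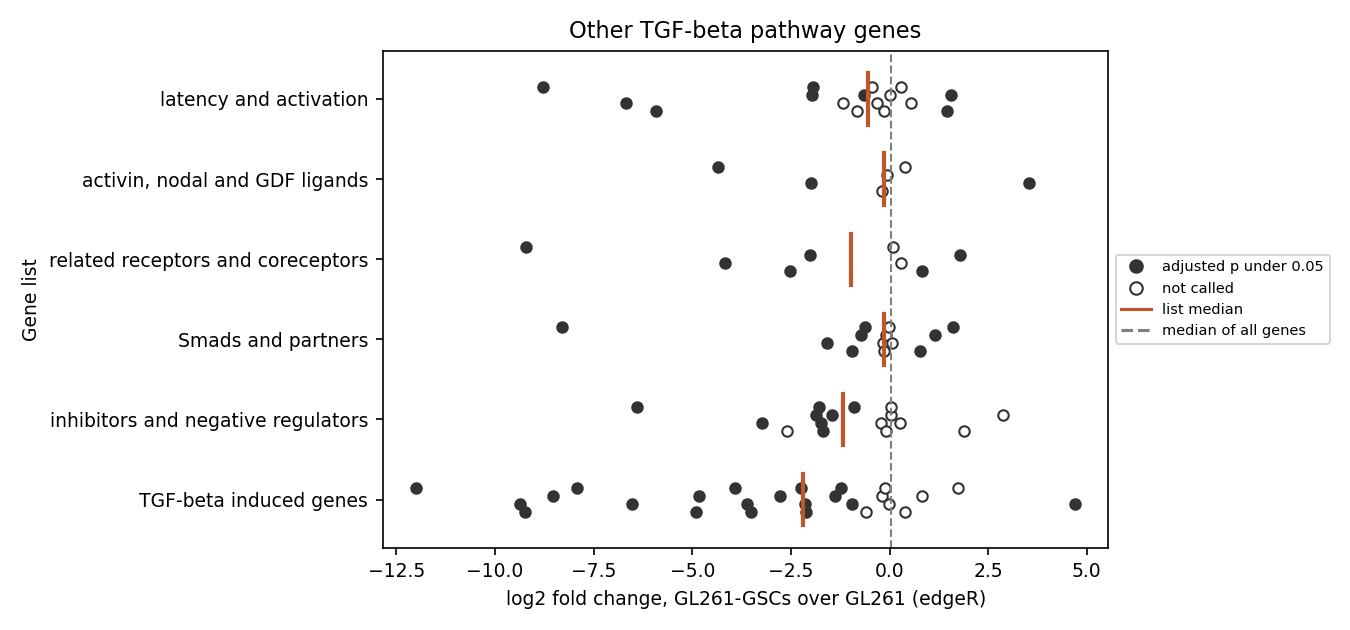
Points give edgeR log2 fold changes of GL261-GSCs over GL261 for the 85 tested pathway genes by list, filled where the adjusted p was under 0.05, with list medians as vertical bars and the median of all genes (0.04) as a dashed line. The 5 genes with 0 to 3 UMIs in a culture are drawn at fitted values, which are no measured size. The TGF-beta induced genes lie farthest left, with a median of -2.19, and no inhibitor passed the test as higher.

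Some of these calls were made only with both GL261 libraries in the fit. Without GL261 replicate 1, 36 pathway genes were called, and without replicate 2, 32. Either omission ended the calls of Furin, Mmp14, Itgb8, Acvr2a, Smad1, Smad2, Smad4, Tab1, Zfyve16 and Col3a1. Omitting replicate 1 also ended that of Inhba, and omitting replicate 2 those of Eng and Tab2. A single GL261 library gives no spread of its own, so an ended call does not show that the difference was lost. The Furin call also ended without GL261-GSCs replicate 1, 2 or 3 (-0.63 to -0.56) and under scaling by library size (-0.48). Those of Itgb8 (1.40) and Mmp14 (-1.72) ended without GL261-GSCs replicate 3, and that of Tab1 without replicate 2, 3 or 4 (1.04 to 1.20).

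Within libraries, cells were also compared by their cell cycle transcripts, a contrast that the choice of genes did not use. In each library, cells were ranked by their share of UMIs from S and G2/M genes and split into 3 equal parts. The top part, called cycle-high cells, was set against the bottom part, called cycle-low cells, with the library as a block. In GL261-GSCs, 7 of the 9 detected genes were called by the edgeR quasi-likelihood test, 1 higher and 6 lower in cycle-high cells, where 45.8% of the 16224 genes tested were called, 17.7% higher and 28.1% lower. Tgfb3, the main ligand there, went from 21.04, 26.4, 21.9 and 17.1 CPM in cycle-low cells to 13.2, 17.8, 13.8 and 14.1 in cycle-high cells, lower in 4 of 4 libraries (log2 change -0.56, SE 0.09, edgeR adjusted p = 0.0012). It was called in 14 of 14 settings. Smad3 fell by 0.66 (edgeR adjusted p = 0.0047) and Tgfb1 by 0.75 (edgeR adjusted p = 0.0074), each called in 13 of 14 settings. Ltbp1 fell by 0.41 (edgeR adjusted p = 0.0039) and was called in 12 of 14. With S genes alone as the score, the changes of Smad3 (-0.12, edgeR adjusted p = 0.41) and Ltbp1 (-0.22, edgeR adjusted p = 0.14) were smaller and not called.

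Tgfbr1 was higher in the cycle-high cells of GL261-GSCs, by 0.35 on the log2 scale (SE 0.07, edgeR adjusted p = 0.0048) and in 4 of 4 libraries. Tgfbr2 missed the threshold (-0.12, edgeR adjusted p = 0.13), as did Tgfb2 (-0.55, edgeR adjusted p = 0.12). Tgfb2 had only 28, 76, 16 and 7 UMIs in these libraries, too few for a missed call to be read as no change. Tgfbi fell by 0.72 (edgeR adjusted p = 0.026), a call that ended without GL261-GSCs replicate 2 (-0.54, edgeR adjusted p = 0.18) or 3 (-0.65, edgeR adjusted p = 0.066), and without GL261 replicate 1 or 2 (-0.69 in both). With S genes alone it was -0.14 (edgeR adjusted p = 0.61), and the call held in 9 of 14 settings. Tgfbi had only 56 and 16 UMIs in GL261-GSCs replicates 3 and 4. The 10 cells with the most Tgfbi held 60.7% and 87.5% of these, so its change there rests on few cells. Smad7 fell by 0.37 (edgeR adjusted p = 0.042), from low levels of 1.72 to 3.21 CPM in cycle-low cells. That call held in 3 of 14 settings and ended without GL261-GSCs replicate 1, 3 or 4 and without either GL261 library (-0.45 to -0.23). With G2/M genes alone the change was -0.12 (edgeR adjusted p = 0.60).

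In GL261, 0 of the 9 genes were called by the edgeR test, where 20.1% of all genes were, 10.4% higher and 9.62% lower, and 1 had an unadjusted p under 0.05. That gene was Smad7, higher in cycle-high cells by 0.22 (SE 0.09, edgeR adjusted p = 0.12) and in 2 of 2 libraries. limma-voom called it (0.22) and no other of the 9. With S genes alone as the score, edgeR called Tgfb3 lower (-0.97, adjusted p = 0.027), a call made in 1 of 14 settings. The difference between the cultures in this change was itself tested, and 0 of 9 passed, where 0.302% of all genes did, 0.074% higher and 0.228% lower. Of the 9, 3 had an unadjusted p under 0.05, Tgfb1, Tgfb3 and Smad7 (edgeR adjusted p = 0.33, 0.14 and 0.17). A difference between the cultures in how these genes move with the cell cycle is therefore not shown. Ltbp1 had only 32 and 19 UMIs in the GL261 libraries, and Tgfb2 only 28, 76, 16 and 7 in the GL261-GSCs libraries. With so few UMIs, a missed call of either gene in that culture, or in the difference, is not read as no change.

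Cycle-high cells were deeper in every library. In GL261-GSCs their median was 7496 to 16665 UMIs per cell against 7183.5 to 14121 in cycle-low cells. Restricted to cells at or above their library's median, an alternative chosen after seeing the data, the calls of Tgfb3 (-0.49, edgeR adjusted p = 0.0080), Smad3 (-0.77, edgeR adjusted p = 0.0067) and Tgfbi held. Those of Tgfb1 (-0.56, edgeR adjusted p = 0.055), Ltbp1 (-0.43, edgeR adjusted p = 0.051), Tgfbr1 (0.24, edgeR adjusted p = 0.092) and Smad7 (-0.23, edgeR adjusted p = 0.40) did not. These are ranges of a score, not cell types, and 364 to 1085 cells per library lay within 10% of the limit for cycle-high cells.

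**Figure D4:**
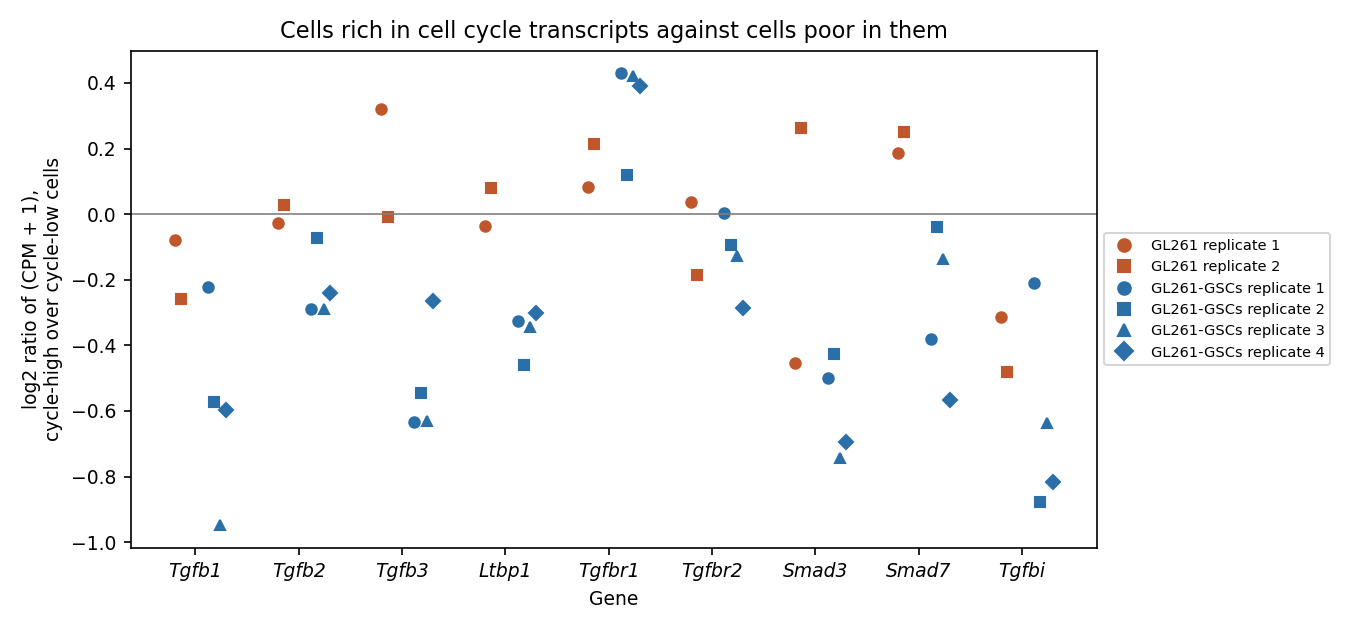
Points give, per library, the log2 ratio of CPM + 1 between cycle-high and cycle-low cells. In GL261-GSCs (blue), Tgfb1, Tgfb2, Tgfb3, Ltbp1, Smad3, Smad7 and Tgfbi lie below 0 and Tgfbr1 above 0 in 4 of 4 libraries. Of these, edgeR did not call Tgfb2. In replicates 3 and 4, the points rest on 56 and 16 UMIs in all called cells for Tgfbi, and on 16 and 7 for Tgfb2. In GL261 (orange), Tgfb1 and Tgfbi lie below 0 and Tgfbr1 and Smad7 above 0 in 2 of 2 libraries, none of them called by edgeR.

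Smad7 was common enough in GL261 for cells with and without a Smad7 UMI to be set side by side at 2000 UMIs per cell, 1034 against 3774 cells in replicate 1 and 952 positive cells in replicate 2. Droplets of free RNA alone would be positive in 10.7% and 7.64% of cases at this depth, against 21.5% and 19.0% of cells. How many positive cells owed their UMI to free RNA was not estimated. Many negative cells held a Smad7 UMI before thinning, so the split is not one of expressing and silent cells. With 2 libraries it is a description, read over genes with at least 150 UMIs. The ratio of positive to negative cells was above 1 in both libraries for 41% of 9204 genes. It was above 1 in both for 13 of 21 TGF-beta induced genes, 8 of 14 inhibitors, 8 of 11 latency and activation genes and 8 of 11 Smads and partners. The counts were 31 of 54 for G2/M genes and 15 of 42 for S genes, so a share above that of all genes was not particular to the induced genes. Junb, an immediate early transcription factor gene, had ratios of 1.37 and 1.64, and Skil had 1.44 and 1.22. Klf10, a TGF-beta induced repressor, had 1.31 and 1.49, and Smurf2 had 1.32 and 1.37. Other genes of these lists lay below 1 in both libraries, among them Acta2 (0.916 and 0.960), Tagln (0.863 and 0.934), Tgif2 (0.913 and 0.851) and Fkbp1a (0.930 and 0.914). Of the genes described first, Tgfbr2 had 1.36 and 1.39, with counting intervals of 0.942 to 1.93 and 0.948 to 1.98 that include 1. Tgfb1 had 0.993 (0.718 to 1.35) and 0.994 (0.737 to 1.32), and Tgfb2 had 0.949 (0.701 to 1.26) and 0.938 (0.729 to 1.19), intervals that all include 1. Tgfb3 had too few UMIs to be read.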

How the data were processed

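The authors deposited, for each library, an unfiltered matrix of raw UMI counts. Cell Ranger 4 produced it, per the file headers. The mm10 build is named in the submitters' processing notes. For aligner settings the sources used here give nothing. The protocol in the labels does not say whether cells or nuclei were loaded. Of 54446 gene identifiers, 54409 matched GENCODE M21 without their version. No doublet caller was run.

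Barcodes were called cells with 10% or more of the UMIs at the 99th percentile of their library's 3000 largest barcodes, at least 500 genes and under 10% mitochondrial UMIs. UMIs were summed per library, since cells are not replicates. Tests were edgeR 4.0.16 quasi-likelihood tests in R 4.3.3 with TMM scaling, filterByExpr and Benjamini-Hochberg adjustment over all genes tested, 2-sided. CPM used TMM-scaled library sizes and log2 values a pseudocount of 1. The SE is the absolute log2 fold change divided by the square root of F, and can look too precise at low counts. Shares used cells thinned to 2000 UMIs, with exact Clopper-Pearson 95% intervals in Python 3.11.15 and scipy 1.17.1.

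Named pathway genes were, per list, the 3 largest rises and falls with an adjusted p under 0.05, a mean log2 CPM of 3 or more and no overlap, plus Ctgf, Skil, Pmepa1, Smad2, Smad4, Smad6, Acvr1b, Acvr2a, Eng, Inhba, Thbs1, Ltbp3, Ski and Smurf2. Another gene that this rule takes is not reported here. Genes named for Smad7-positive cells were chosen after their values were seen. The members and lists were chosen with earlier results of these data known. Cell cycle genes were left out of the counts of that contrast. The tests were tested on simulated data. When each simulated gene kept its own spread, false calls exceeded the nominal share, most so in the comparison of cultures, and when genes followed the common trend they did not. Calls between cultures are therefore less certain than their adjusted p. The simulations changed far fewer genes than were called between cultures here, so by how much is not known. Alternatives covered scaling (DESeq2 size factors, library size), filters, cell calling, limma-voom 3.58.1, DESeq2 1.42.0, a replicate block, and leaving out libraries.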

Additional observations from a re-analysis of the deposited data

Results flagged for a closer look

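Values in the 4 GL261-GSCs libraries were screened for 1 library far from the rest (Dixon's criterion, 51 groups of values tested). Chance alone flags about 1 in 20 such groups, and 4 were marked. Tgfb3 stood at 21.3 CPM in replicate 2, with 16.3 to 16.5 in the others. Tgfb2 was found in 0.273% of the cells of replicate 2 and in 0.0550% to 0.0704% of those of the others. Smad4 was at 61.1 CPM in replicate 2 and at 70.0 to 71.8 in the others. Col3a1 was at 22.3 CPM in replicate 1 and at 174 to 201 in the others.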

How the results depend on the processing

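With a single GL261 library, whose spread was then taken from the other group, the count of 5514 genes called between cultures fell to 1972 (without replicate 1) or 1817 (without replicate 2), over a range of 1817 to 6193 when each library was left out. It was 9881 with GL261-GSCs replicates 3 and 4 alone. The 52 pathway genes ranged from 32 to 53 when each library was left out. Scaling by library size moved the all-gene median log2 fold change from 0.04 to 0.18 and the calls from 2920 higher and 2594 lower to 3491 and 2034. Ltbp3, not called, turned to 0.00445 under that scaling and 0.0121 with GL261-GSCs replicates 3 and 4, with a range of -0.339 to 0.0438 when each library was left out. Smurf2, not called, turned to 0.0671 and 0.0645 under these settings. The Smad3 share differed by -0.30 percentage points without thinning. For the cell cycle, GL261-GSCs calls were 4178 with S genes only and 4248 in the deeper cells against 7429, and 4958 to 6879 when each GL261-GSCs library was left out. GL261 calls were 604, 1060 and, with 1 GL261 library, 266 to 483, against 3255. Tgfb3 in GL261 turned to -0.97 with S genes only. The cause of these moves was not tested. The correlations of deviations from the group means were -0.01 and 0.07 for same-numbered libraries. The deviations of the 2 GL261 libraries mirror each other, so these values cannot decide whether replicate numbers pair the libraries. With a replicate block in the edgeR fit, 6512 genes and 56 pathway genes were called. In that fit Tab1 was lost (edgeR adjusted p = 0.064) and Pmepa1 gained (edgeR adjusted p = 0.018). GL261-GSCs replicates 3 and 4 have no same-numbered GL261 library, so its culture effect rests on replicates 1 and 2 alone. Depth limits Tgfb2 in GL261-GSCs and Ltbp1 in GL261 most.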
